A study of Mus musculus with 2 samples.

Results

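The genes Cst7, Itgax, Spp1, Gpnmb, Axl, Cd9 and Lgals3 were followed by symbol in both count matrices, and all 7 were found among the 32285 genes listed. They are known as genes that microglia, the resident macrophages of nervous tissue, express when they take on the disease-associated state. The cells came from optic nerves of Nf1-OPG mice, which carry 1 conditional and 1 neo-disrupted Nf1 allele (Nf1flox/neo; GFAP-Cre), lose Nf1 in neuroglial progenitors through GFAP-Cre, and form optic pathway gliomas. One group was treated with an antibody to PD-1 (labelled anti-PDCD1) and the other with an antibody to TIGIT, both inhibitory receptors of T cells. Nerves of 10 mice at 12 weeks of age were pooled for each group and gave 1 library each by the 10x 5′ method. All cells other than the GFAP-Cre lineage are heterozygous for Nf1 by this genotype, microglia included, and an untreated library was not analysed here. The labels' protocol also mentions meningeal dura, and whether dura entered these libraries is not given in the sources used here.

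The libraries held 85031565 UMIs (unique transcript counts) over 13997 barcodes for anti-PD-1 and 40733655 over 7915 for anti-TIGIT, and 13275 and 7495 cells were retained at median depths of 4453 and 4126 UMIs. They shared 163 barcodes of 21912 given. Cell Ranger 8.0.0 had made the anti-PD-1 matrix and 8.0.1 the other, so version and treatment cannot be told apart. Cell types were assigned per cell by marker genes that left the 7 genes out, and 14 types had at least 50 cells in each library. Each group has 1 library, so no difference has a replicate check and no test was run. Levels are CPM, the UMIs of a gene per 1000000 UMIs of that cell type in that library, ratios are log2 of anti-PD-1 over anti-TIGIT, and intervals in parentheses are exact 95% intervals that cover counting error only, not the spread between mice (Newcombe's interval for a difference of shares). A gene is called higher or lower where that interval does not hold 0. In such data, fewer cells that express a gene and less RNA per cell give the same summed level, so shares of cells with a UMI are given as well.

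As background, microglia in healthy tissue express a homeostatic set of genes such as P2ry12, Tmem119 and Cx3cr1. Near amyloid plaques, damaged myelin or dying cells they lower these and raise genes of lysosomes, lipid handling and phagocytosis, first a Trem2-independent set (stage 1, with Apoe, Tyrobp and B2m) and then a Trem2-dependent set (stage 2), to which the 7 genes here belong. Cst7 encodes cystatin F, a secreted and lysosomal inhibitor of cysteine cathepsins. Spp1 encodes osteopontin, a secreted ligand of CD44 and integrins, and Lgals3 encodes galectin-3, a lectin that binds galactosides and damaged lysosomes. Itgax encodes CD11c, the alpha chain of an integrin that pairs with Itgb2. Axl is a receptor tyrosine kinase that binds apoptotic cells through GAS6, Cd9 a tetraspanin of the plasma membrane, and Gpnmb a transmembrane glycoprotein of lysosomes and melanosomes. None of the 7 is restricted to microglia: cytotoxic T cells express Cst7, dendritic cells Itgax, and oligodendrocytes and their precursors Cd9.

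The 250 bases before the start of 5 of the genes are shown, since Cst7, Itgax, Spp1 and Gpnmb were each more than 2-fold higher in anti-PD-1 microglia and Axl was not. They are RefSeq sequences of GRCm38.p6, the release that corresponds to the mm10 build of the submitters' processing notes, and all 7 genes matched the RefSeq table, Spp1 with a further start that is not shown. The bases just after the RefSeq starts of Gpnmb and Axl were not found in the GENCODE transcripts used as a check, and those of the other 5 were. Capitals mark the letters of 5 motifs searched on both strands: CACGTG and CATGTG, letters bound by the MITF and TFE family, TGANTCA, bound by AP-1, GGAAGT, bound by ETS factors such as the macrophage factor PU.1 (Spi1), and ACCACA, bound by RUNX factors. No motif overlapped another in these windows. The windows lie at chr2:150570165-150570414 (plus strand) for Cst7, chr7:128129300-128129549 (plus) for Itgax, chr5:104434861-104435110 (plus) for Spp1, chr6:49036268-49036517 (plus) for Gpnmb and chr7:25788734-25788983 (minus) for Axl.
Cst7: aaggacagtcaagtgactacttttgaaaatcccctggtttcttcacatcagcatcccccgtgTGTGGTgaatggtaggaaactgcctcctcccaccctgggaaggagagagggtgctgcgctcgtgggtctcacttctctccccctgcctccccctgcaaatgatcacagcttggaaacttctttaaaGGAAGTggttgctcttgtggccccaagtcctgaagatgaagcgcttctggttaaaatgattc
Itgax: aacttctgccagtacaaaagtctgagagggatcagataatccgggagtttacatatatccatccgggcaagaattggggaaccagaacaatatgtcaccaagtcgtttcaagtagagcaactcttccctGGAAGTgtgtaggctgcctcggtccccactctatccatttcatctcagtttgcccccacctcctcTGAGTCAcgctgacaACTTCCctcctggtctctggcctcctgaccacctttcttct
Spp1: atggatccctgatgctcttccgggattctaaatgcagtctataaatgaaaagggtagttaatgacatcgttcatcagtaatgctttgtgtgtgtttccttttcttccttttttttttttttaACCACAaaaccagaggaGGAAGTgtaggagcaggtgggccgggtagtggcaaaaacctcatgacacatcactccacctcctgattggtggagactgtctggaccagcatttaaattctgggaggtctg
Gpnmb: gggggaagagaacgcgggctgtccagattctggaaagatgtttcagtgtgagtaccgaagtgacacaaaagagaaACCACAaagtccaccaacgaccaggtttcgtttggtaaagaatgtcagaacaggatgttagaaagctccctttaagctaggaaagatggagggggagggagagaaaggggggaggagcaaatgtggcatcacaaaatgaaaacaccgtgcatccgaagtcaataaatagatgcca
Axl: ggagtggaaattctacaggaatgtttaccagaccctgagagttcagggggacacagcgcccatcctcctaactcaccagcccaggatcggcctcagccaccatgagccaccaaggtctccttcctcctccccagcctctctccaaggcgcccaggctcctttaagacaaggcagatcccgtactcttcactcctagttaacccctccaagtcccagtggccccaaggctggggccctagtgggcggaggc

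The letters GGAAGT or their complement stood 62 bases before the start of Cst7, 121 and 41 before that of Itgax and 111 before that of Spp1. Windows with them made up 19.7% of 32851 promoters in the table, and 3 of the 7 genes here. ACCACA was found in 3 of the 7 (Cst7, Spp1 and Gpnmb) and in 14.0% of all windows, TGANTCA in Itgax alone, 56 bases before its start, and in 6.75% of all. CATGTG was found in Cd9 alone (12.3% of all) and CACGTG in none of the 7 (6.02% of all). The windows of Axl and Lgals3 held none of the 5 motifs. These are matches of letters, not sites of binding, and nothing was measured on the factors at these positions.

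In microglia the genes of the set were mostly higher with anti-PD-1. Of the 7, 6 were higher and none was lower, and the interval of Axl held 0. Among 13010 genes tested in these cells 7.2% were called higher and 26.8% lower. By size, 4 of the 7 were at least 2-fold higher on the scale of log2(CPM + 5), against 1.24% of all genes tested, and none was at least 2-fold lower, against 2.11%. The median over the 7 was 1.03 on that scale and that of all genes tested -0.18. That of the 7 was 0.248 in cells with Y-linked UMIs, 0.472 with a gate without Tmem119, P2ry12 and Siglech (the reduced gate), 0.577 with clusters in place of gates and 0.639 without cells holding T or NK cell markers. A plain log2 ratio of CPM has a median of -0.25 over genes with at least 50 counts. Relative to that, each value below would be 0.25 higher and the interval of Axl, at 0.36, would no longer hold 0. The microglia numbered 1476 and 463, with median depths of 6254.5 and 3755 UMIs.

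Cst7 stood at 339 CPM (328 to 351) in anti-PD-1 microglia and at 67.6 (56.2 to 80.7) in anti-TIGIT microglia, a log2 ratio of 2.33 (2.07 to 2.60). It had a UMI in 764 and 49 cells, 51.8% and 10.6%. With each cell thinned to 1000 UMIs, which removes the difference in depth and leaves out 76 and 31 shallower cells, the shares were 21.4% (19.3 to 23.7) and 3.01% (1.61 to 5.09). The anti-PD-1 level was spread over many cells, of which the highest held 42 of 3483 UMIs. Over 20 other random draws of the thinning, the shares ran from 19.0% to 22.7% and from 2.08% to 4.63%, so the ranges of the libraries did not overlap. Across all settings tried, the log2 ratio of Cst7 lay between 1.78 and 3.09.

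Because T cells carry Cst7 too, its counts in microglia were set beside T cell genes of the same cells. In CD8 T cells there were 0.129 and 0.120 Cst7 counts per count of Nkg7, a granule gene of cytotoxic cells, and in microglia 38.7 and 9.46. Per count of Ccl5, a chemokine gene abundant in CD8 T cells, there were 0.0477 and 0.0454 in CD8 T cells and 0.158 and 0.237 in microglia. Ccl5 itself stood at 2140 and 286 CPM in microglia, so it moved with Cst7, and its part in the result was not tested. The 6 T cell markers of the gate summed to 26.5 CPM in anti-PD-1 and 28.0 CPM in anti-TIGIT microglia, with 0 and 1 of them at 0 counts. The gate itself limits these markers in microglia, so the sums do not measure T cell RNA freely. No UMI of any T or NK cell marker was found in 1353 of 1476 and 444 of 463 microglia. In those cells, a setting chosen after seeing the data, Cst7 stood at 335 and 59.6 CPM. Oligodendrocytes, which should lack the gene, had a Cst7 UMI in 1.30% and 0.205% of thinned cells, at median depths of 6538 and 6246 UMIs.

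Spp1 stood at 230 CPM and 86.9 CPM in microglia, a log2 ratio of 1.40 (1.17 to 1.64), and that level rested on few cells. It had a UMI in 154 of 1476 and 19 of 463 microglia, and 1 cell held 936 of the 2360 anti-PD-1 UMIs and another 75 of the 158 anti-TIGIT UMIs. After thinning, 4.93% (3.85 to 6.20) and 2.08% (0.957 to 3.92) of cells had a UMI. In 20 other draws the shares with Spp1 ran from 3.64% to 4.71% and from 0.694% to 2.31%. The anti-PD-1 share of the draw shown thus lies above the highest of those. The direction turned where microglia were taken from clusters (-1.23) or by the reduced gate (-0.31), which leaves out markers that activated microglia can lose. In cells without T or NK cell markers Spp1 stood at 144 and 91.5 CPM (0.65, 0.41 to 0.90). Lgals3 stood at 106 and 63.2 CPM (0.74, 0.46 to 1.03) in 258 and 37 cells, and 1 cell held 64 of 1085 and 19 of 115 UMIs. After thinning 84 of 1400 and 21 of 432 cells had a UMI, with intervals that overlap (4.81% to 7.37% and 3.03% to 7.33%). Over 20 other draws these shares ran from 4.71% to 6.5% and from 2.31% to 4.86%, and their difference from 0.32 to 3.97 points. With the reduced gate the log2 ratio of Lgals3 had an interval holding 0 (0.36, -0.00461 to 0.75). Its direction turned among cells with Y-linked UMIs, at 71.1 against 92.9 CPM (-0.39), while among Xist-positive cells it stood at 147 against 54.0.

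Itgax stood at 85.0 CPM (79.4 to 90.8) and 39.0 CPM (30.5 to 49.2), a log2 ratio of 1.12 (0.77 to 1.49). No single cell carried it: the highest held 11 of 873 UMIs and 5 of 71. A UMI was found in 456 and 48 cells, and after thinning in 6.50% (5.27 to 7.92) and 2.78% (1.44 to 4.80). Axl was close in both libraries. It stood at 121 CPM (115 to 128) and 112 CPM (97.3 to 129), a log2 ratio of 0.11 (-0.10 to 0.33), and was seen in 10.4% and 10.9% of thinned cells. Its interval still leaves room for a ratio up to 0.33, and with clusters or the reduced gate its value was 0.46 and 0.50.

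Cd9 was the most widely detected of the 7 in microglia and differed least among those called higher. It stood at 1212 and 1015 CPM (0.26, 0.19 to 0.33), and 61.3% (58.7 to 63.8) and 53.5% (48.6 to 58.3) of thinned cells had a UMI. The call ended where counts were summed over thinned cells (0.11, -0.04 to 0.27) and with the reduced gate (0.08, -0.01 to 0.17). Gpnmb was the rarest. It gave 201 UMIs in 49 anti-PD-1 microglia, 51 of them in 1 cell, and 2 UMIs in 1 anti-TIGIT cell, which is 19.6 and 1.10 CPM and a log2 ratio of 4.15 (2.28 to 7.21). Among cells with Y-linked UMIs that ratio was 0.56, at 4.88 and 3.32 CPM, and among Xist-positive cells Gpnmb stood at 51.7 CPM and at 0.

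**Figure D1:**
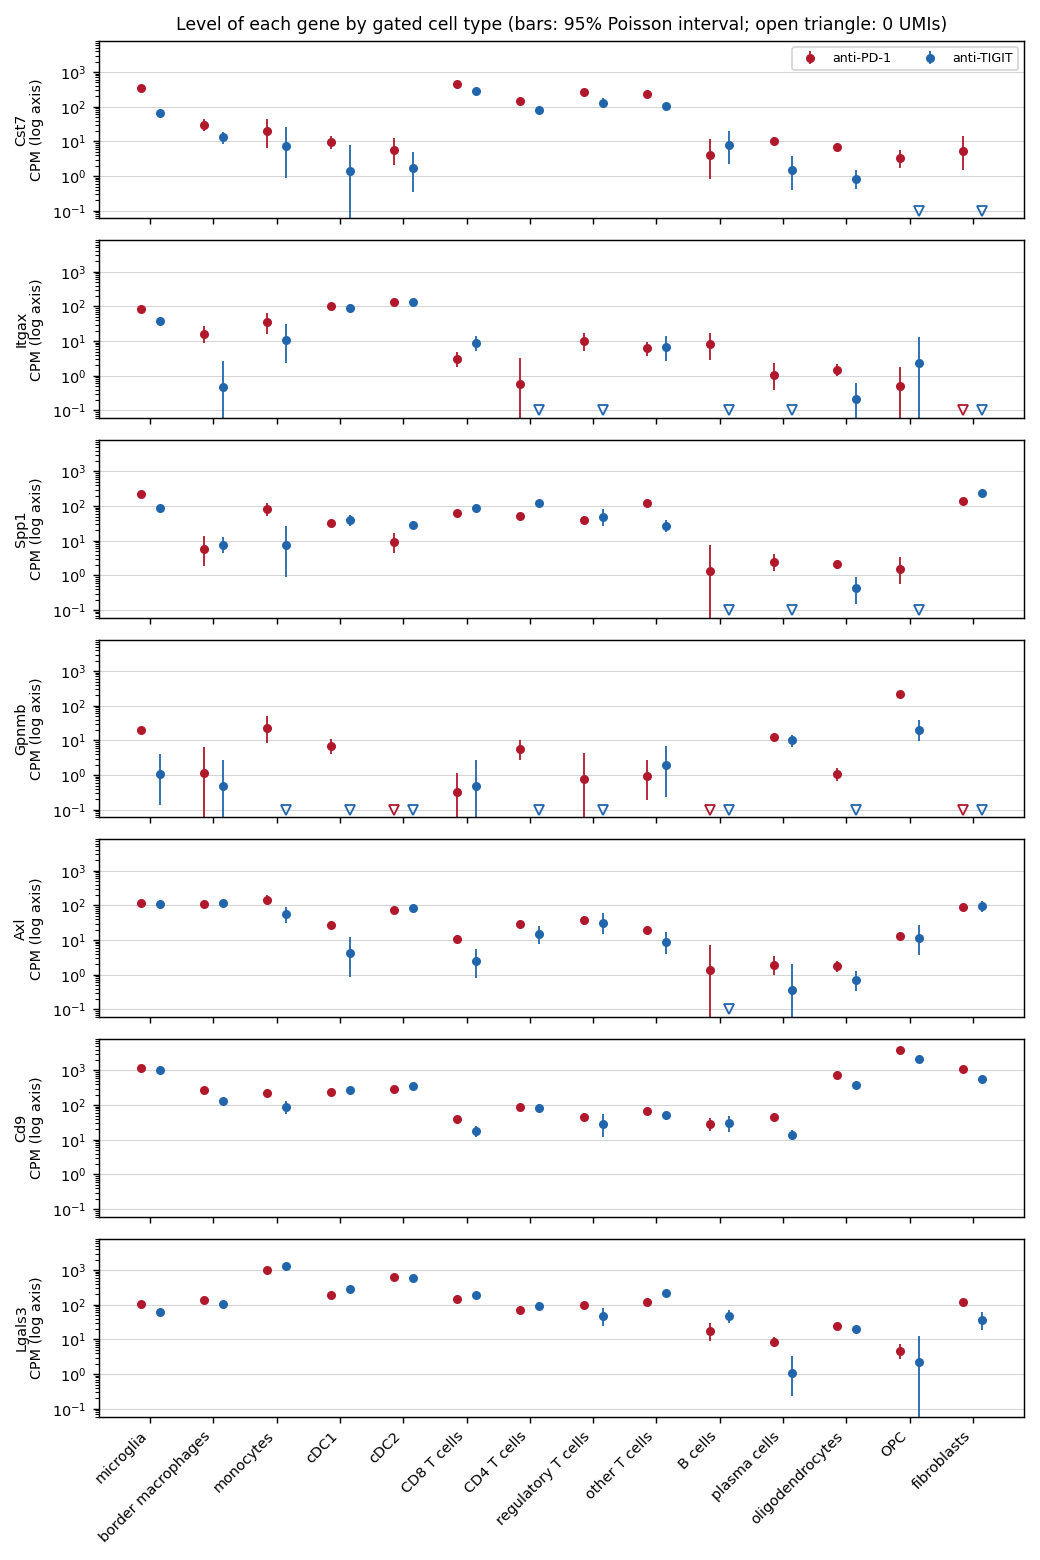
Each panel plots 1 of the 7 genes on a log axis in CPM over the 14 gated cell types, with anti-PD-1 in red, anti-TIGIT in blue, bars for exact 95% Poisson intervals and open triangles at the bottom for 0 UMIs. The red point lies far above the blue for Cst7 in microglia (339 and 67.6 CPM) and for Gpnmb in OPC (214 and 20.5 CPM), and the points of Axl in microglia nearly coincide.

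Detection of several of the genes in the same microglia differed in the same direction. With 1000 UMIs per cell, 28.1% (25.8 to 30.6) of 1400 anti-PD-1 microglia and 9.95% (7.30 to 13.2) of 432 anti-TIGIT microglia held at least 2 of the 7, a difference of 18.2 points (14.3 to 21.6). At least 3 were held by 7.57% (106 cells) and 2.78% (12 cells), a difference of 4.79 points (2.41 to 6.71) that ran from 3.65 to 6.49 points over 20 other draws. None of the 7 was seen in 26.1% and 36.6%, and at least 1 in 73.9% and 63.4%. Over 20 other draws at least 1 was seen in 72.0% to 75.1% and in 56.9% to 63.2%. The anti-TIGIT share of the draw shown thus lies above the highest of those. For at least 2, the difference ran from 13.6 to 19.6 points over the same draws. Among cells with Y-linked UMIs the difference for at least 3 was 1.61 points, with an interval holding 0 (-3.44 to 4.75). Of the 394 and 43 cells with at least 2, 199 and 10 held both Cst7 and Cd9. How far the shares with several genes follow from the shares of single genes was not tested.

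**Figure D2:**
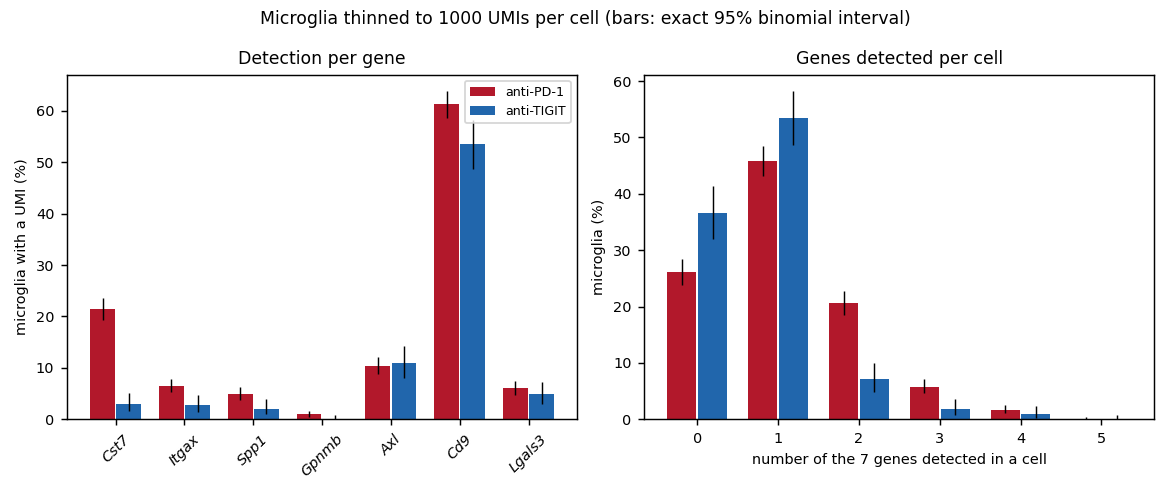
The left panel gives the share of microglia with a UMI of each gene and the right panel the share holding a given number of the 7 genes, after thinning to 1000 UMIs, for anti-PD-1 (red, 1400 cells) and anti-TIGIT (blue, 432 cells), with exact 95% binomial intervals. The Cst7 bars differ most (21.4% and 3.01%), and 2 genes per cell are seen in 20.6% and 7.18% of cells.

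Within the anti-PD-1 library, Cst7 was seen more often in cells that held Lgals3 or Spp1. Cst7 was found in 42.9% (32.1 to 54.1) of the 84 thinned microglia with Lgals3 and in 20.1% (17.9 to 22.3) of the rest, and in 43.5% (31.6 to 56.0) of the 69 with Spp1 and 20.3% (18.2 to 22.5) of the rest. With Gpnmb it was found in 7 of 14 cells. Axl showed no such difference, with Cst7 in 24.1% of Axl-positive and 21.1% of other cells. In the anti-TIGIT library only 13 thinned microglia held Cst7, too few for the same statement, though 6 of them held Axl, 46.2% (19.2 to 74.9), against 41 of the other 419.

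Microglia with at least 2 of the genes also differed from those with none in genes outside the set, and this was seen inside each library. The comparison set 394 against 365 anti-PD-1 cells and 43 against 158 anti-TIGIT cells, thinned to the same depth. Of 8 stage 1 genes, 8 and 6 were higher in the cells with at least 2, where 3.22% and 3.08% of all genes outside the set were called higher. Apoe and Lyz2 took opposite directions, at 0.64 and 0.36 with anti-PD-1 and at -0.26 and -0.71 with anti-TIGIT. Of 19 other stage 2 genes 12 and 8 were higher, 6 of them in both libraries. Lpl, a lipase, had 47 against 11 UMIs in the anti-PD-1 library (1.98, 1.02 to 3.08) and 11 against 2 in the anti-TIGIT library (4.34, 2.14 to 7.55), and Cd63, a tetraspanin of late endosomes, had log2 ratios of 1.39 and 1.70. Lgals3bp, which encodes a secreted protein that binds galectin-3, was the single partner gene higher in both (1.02 and 1.10).

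Homeostatic genes gave a less even picture inside the libraries. Of 12 outside the gate, 6 were lower in anti-PD-1 cells with at least 2 of the genes and 1 in anti-TIGIT cells, against 6.86% and 2.22% of all genes. Selplg, a ligand of selectins, was lower in both (-0.68 and -0.58). Of the 7 gate markers of microglia 3 and 0 were lower, and of the 6 T cell markers none was called in either library. Each T cell marker had few UMIs, however. With anti-PD-1 Cd3e had 5 UMIs against 1, and Cd3g and Trac 3 against 1 each. Cd3d and Trbc2 had 2 against 0 each, and Trbc1 had none. With anti-TIGIT Cd3e had 0 against 2 and Trbc2 0 against 1, and the others had none. Of the 8 border macrophage markers none was called with anti-PD-1, and 1 was lower with anti-TIGIT: Mrc1, with 0 UMIs against 19, beside Ms4a7 with 0 against 8. Dissociation stress genes were lower in 6 of 9 with anti-PD-1, such as Jun (-0.79) and Hspa1a (-1.15), and with anti-TIGIT 2 were higher (Fosb and Atf3) and none lower. Class II genes were higher in 4 of 4 and 1 of 4. Some of these lists thus differed between cells with at least 2 of the 7 genes and cells with none, not always alike in both libraries. The part of these lists in the differences above was not tested.

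Between the libraries, the other genes of the programme did not all follow the 7. Among all genes tested in microglia 7.2% were called higher and 26.8% lower. Of 8 stage 1 genes 6 were higher with anti-PD-1, among them H2-D1 (0.94), Ctsb (0.65), a lysosomal protease, Fth1 (0.59) and B2m (0.35), and 1 was lower, Lyz2 (-0.99). Their median on the log2(CPM + 5) scale was 0.32. Of 19 other stage 2 genes 9 were higher, with Cd36 (1.23), a scavenger receptor, Csf1 (1.17), a growth factor of microglia, Cd63 (0.85) and Timp2 (0.83) leading, and 6 were lower, with Ch25h (-1.53) and Ank (-1.47) lowest, followed by Cadm1 (-0.49) and Cd68 (-0.48). Trem2, the receptor the stage depends on, was lower too (-0.33), where the median over genes with at least 50 counts was -0.25. The median of the 19 stage 2 genes on the log2(CPM + 5) scale was 0.07. Clec7a, often counted with them, was not found by symbol among the genes listed and so was not analysed here.

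All 12 homeostatic genes outside the gate were lower in anti-PD-1 microglia, where 26.8% of all genes were. Fcrls stood at 17.1 against 112 CPM (-2.70, -3.00 to -2.41), Slc2a5, a fructose transporter of microglia, at 22.4 against 84.7 (-1.92), Ltc4s had a log2 ratio of -1.26 and Rnase4 of -1.07. The median of the list was -0.88. The 7 gate markers, by which microglia were chosen in the first place, summed to 7142 and 11608 CPM, none at 0. Markers of border macrophages, the macrophages of meninges and vessels, summed to 46.6 and 245 CPM in the same cells, with 0 and 1 of 8 markers at 0, and their part in these differences was not tested.

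Partners of the 7 gene products split. Higher were Cd44 (67.6 against 30.8 CPM, 1.13), a receptor of osteopontin, Lgals3bp (592 against 270 CPM, 1.13), Ctss (0.48), a cathepsin, and Cd81 (0.39), a tetraspanin that associates with CD9. Lower were Gas6 (24.2 against 72.6 CPM, -1.58) and Pros1 (-0.41), the ligands of AXL and its relatives, Mertk (-0.50), another receptor of that family, and the integrin chain Itgb1 (-0.47). In all 5 of 17 with at least 10 counts were higher and 7 lower, against 7.2% and 26.8% of all genes tested in microglia. Itgb2, the chain that pairs with CD11c, had an interval holding 0 (255 and 259 CPM). Of 7 regulators with at least 10 counts none was higher and 4 were lower, to be set against the same shares of all genes. Those 4 were Runx3 (-0.95), Tfe3 (-0.78), Tfeb (-0.44) and Spi1 (-0.23). The value of Spi1 was near the median of -0.25 over genes with at least 50 counts. Mitf stood at 83.2 and 87.4 CPM, and Tfec had no UMI in these cells.

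Class II MHC genes, whose products display peptides to CD4 T cells, were higher in 4 of 4, from 1.22 for H2-Aa to 1.61 for Cd74 (39195 against 12819 CPM). Genes of dissociation stress went the other way, with 8 of 9 lower, Hspa1b (-2.28) and Hspa1a (-1.72) lowest, Jun (-0.87) and Egr1 (-0.76). The shares over all genes tested in microglia were 7.2% higher and 26.8% lower. The part of class II state or handling in the values of the 7 genes was not tested.

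**Figure D3:**
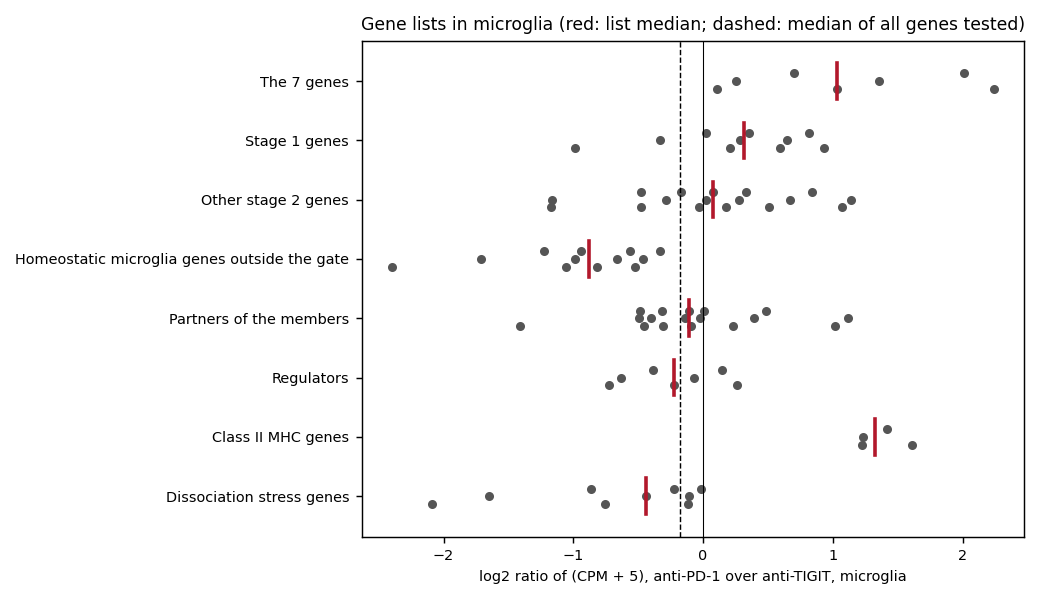
Each grey point is 1 gene in microglia on the x axis of log2 ratios of (CPM + 5), anti-PD-1 over anti-TIGIT, grouped by list, with red bars for list medians and a dashed line for the median of all 13010 genes tested. Timp2 and Trem2 are drawn under stage 1. The 7 genes (median 1.03) and class II genes lie to the right, and the homeostatic genes (median -0.88) lie wholly to the left of 0.

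The class II level was also used to divide microglia within each library, at 0.5% of a cell's UMIs in the 4 class II genes, a limit chosen after their values were seen. It put 1263 and 179 cells at or over the limit and 213 and 284 under it, and 7 and 4 of the former and 5 and 1 of the latter lay near it. The division is by a level and defines no type of cell. Cst7 was higher over the limit in both libraries, at 366 against 60.1 CPM with anti-PD-1 and 110 against 35.1 with anti-TIGIT. Over the limit the anti-PD-1 level was above the anti-TIGIT level, with intervals of 354 to 379 and 87.9 to 135. Under it the levels were 60.1 and 35.1 CPM, with intervals of 45.2 to 78.2 and 24.6 to 48.6, which overlap. Ratios of these parts were given no interval, so an overlap in this paragraph does not show levels to be alike. Axl was also higher over the limit in both (128 against 50.2 and 169 against 68.2 CPM), and over the limit it was the anti-TIGIT level that was above, with intervals of 142 to 200 and 121 to 136. Lgals3 had intervals of 106 to 119 over and 24.8 to 50.6 under the limit with anti-PD-1, and of 63.3 to 105 and 36.2 to 64.2, which overlap, with anti-TIGIT. Spp1 stood at 239 over and 135 under it with anti-PD-1, and at 22.7 over and 136 under it with anti-TIGIT. Cd9 also took opposite directions, with 1222 against 1108 CPM and 867 against 1129. Median depths were 6855 and 4213 UMIs over and under the limit with anti-PD-1, and 4118 and 3517 with anti-TIGIT, and the part of depth was not tested. Itgax stood at 91.6 against 17.5 CPM and at 49.2 against 31.2, the latter with intervals that overlap.

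Border macrophages, the gated type nearest to microglia, held less of most of these genes. They numbered 191 and 526 cells, carried microglia markers at a sum of 1330 and 1397 CPM, and 4 of the 7 genes were higher with anti-PD-1 and none lower, against 6.1% and 5.86% of genes tested there. By size 1 of 6 genes with at least 10 counts was at least 2-fold higher and none 2-fold lower, against 1.53% and 1.31% of all, and the median over the 6 was 0.66, against -0.02 over all genes tested. Cd9 stood at 266 (233 to 303) and 134 (119 to 151) CPM, a log2 ratio of 0.99, where 1 cell held 61 of the 226 anti-PD-1 UMIs. Cst7 stood at 30.6 and 13.1 CPM (1.22, 0.39 to 2.05), on 26 and 27 UMIs, and Itgax had 14 UMIs and 1 (5.08, 2.37 to 10.5). Lgals3 had a ratio of 0.37 (0.03 to 0.71), which turned to -0.33 in Xist-positive cells (109 against 137 CPM). Axl, as in microglia, had an interval holding 0 (-0.46 to 0.26), at 108 (87.4 to 133) and 116 (102 to 132) CPM. T cell markers summed to 171 and 18.0 CPM in these cells, with none of the 6 at 0, and their part in these values was not tested; in cells without them or NK cell markers Cst7 stood at 30.9 and 12.9 CPM.

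In oligodendrocyte precursor cells (OPC) the difference lay in Gpnmb and Cd9. Gpnmb stood there at 214 CPM (200 to 229) with anti-PD-1 and 20.5 CPM (9.39 to 39.0) with anti-TIGIT, a log2 ratio of 3.38 (2.45 to 4.52) and the highest level of this gene in any type compared. It had a UMI in 196 of 653 cells and in 6 of 103, and in 14.3% (11.7 to 17.2) and 2.94% (0.611 to 8.36) of thinned cells, and no cell held more than 24 of the 846 anti-PD-1 UMIs. Markers of melanocytes, another cell type that expresses Gpnmb, summed to 13.9 and 11.4 CPM, with 3 and 4 of 6 at 0. Microglia markers summed to 80.1 and 75.3 CPM, with 0 and 4 of 7 at 0. Class II genes were higher in 4 of 4 in these cells (Cd74 at 521 and 192 CPM), and dissociation stress genes in 5 of 9, with none lower (Jun at 2705 and 1175 CPM). The part of these in the values of Gpnmb and Cd9 was not tested. Cd9 stood at 3985 (3923 to 4048) and 2152 (2017 to 2294) CPM, a log2 ratio of 0.89 (0.79 to 0.98). Of the 7 genes 2 were called higher and none lower (6.35% and 10.9% of genes tested), and 1 of 5 with at least 10 counts was at least 2-fold higher and none 2-fold lower (4.24% and 2.78% of all). The median over genes in OPC was -0.11 as a plain log2 ratio, relative to which Gpnmb would be at 3.50. Its ratio was 3.60 in Xist-positive cells and 2.07 in cells with Y-linked UMIs.

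In oligodendrocytes, which form myelin, all 7 genes were called higher, against 18.9% of genes tested and 18.2% called lower. Cd9 stood at 716 and 388 CPM (0.88, 0.84 to 0.93) and was seen in 44.5% and 32.6% of thinned cells. The rest reached at most 23.7 CPM, among them Cst7 at 6.91 and 0.843 CPM and Gpnmb at 21 UMIs against 0. The lower limit of the exact interval for Gpnmb was 3.79-fold. With a floor of 3 counts in place of the 0, its ratio would be 5.10-fold. Genes of microglia were higher in the same cells: 9 of 10 homeostatic genes outside the gate, such as Csf1r (10.8 against 0.983 CPM), and Trem2 (9.62 against 0.702 CPM). The part of RNA from other cells in these low levels was not tested.

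T cells carried Cst7, Lgals3 and some Spp1. In CD8 T cells 3 of the 7 genes were higher and 3 lower, against 11.7% and 12.6% of genes tested. Cst7 stood there at 445 and 288 CPM, a log2 ratio of 0.63 (0.50 to 0.76), and 32.3% and 23.8% of thinned cells had a UMI. Cst7 was also higher in regulatory T cells (267 against 129 CPM, 1.05), CD4 T cells (146 against 81.8, 0.83) and other T cells (231 against 106, 1.13). Lgals3 was lower in CD8 T cells (151 against 197 CPM, -0.38, but 0.0154 among cells with Y-linked UMIs) and other T cells (-0.86) and higher in regulatory T cells (1.06). Spp1 in CD8 T cells stood at 62.9 against 90.0 CPM (-0.52), but 1 cell held 109 of the 184 anti-TIGIT UMIs, and without the highest cell of each library the ratio was 0.60. Spp1 in other T cells (2.23) rested on 36 and 3 cells. The counts of genes higher and lower were 2 and 0 in regulatory T cells (4.6% and 6.14% of genes tested), 3 and 1 in CD4 T cells (8.38% and 6.36%) and 3 and 1 in other T cells (11.3% and 6.59%). Among cells of the B lineage they were 0 and 1 in B cells (5.68% and 11.6%) and 4 and 0 in plasma cells (10.2% and 6.31%).

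Among the 14 types compared, dendritic cells held the highest levels of Itgax and monocytes that of Lgals3. Itgax stood in cDC2, the conventional dendritic cells that chiefly prime CD4 T cells, at 137 and 136 CPM (0.01, -0.30 to 0.31), and in cDC1, which cross-present to CD8 T cells, at 105 and 91.9 CPM (0.19, -0.20 to 0.60). Lgals3 stood at 635 and 602 CPM in cDC2 (0.08, -0.06 to 0.22), at 193 and 284 in cDC1 (-0.56, but 0.0129 among cells with Y-linked UMIs) and at 976 and 1355 in monocytes (-0.47, -0.71 to -0.24), of which the libraries held 54 and 50 cells. Of the 7 genes none was higher and 2 were lower in cDC2 (8.54% and 7.82% of genes tested), 3 higher and 1 lower in cDC1 (6.25% and 9.52%), and 4 higher and 1 lower in monocytes (5.47% and 6.4%). Genes tested had at least 10 counts, which Gpnmb, called higher in monocytes on 6 UMIs against 0, did not reach. Axl in monocytes stood at 144 and 54.9 CPM (1.39, 0.49 to 2.36) on 37 and 15 UMIs. In fibroblasts Cd9 (1100 against 576 CPM, 0.93) and Lgals3 (118 against 35.5 CPM, 1.74) were higher and Spp1 lower (141 against 237 CPM, -0.75, but 0.0459 with limits of 500 genes and 5% mitochondrial UMIs), against 5.81% and 6.18% of genes tested.

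**Figure D4:**
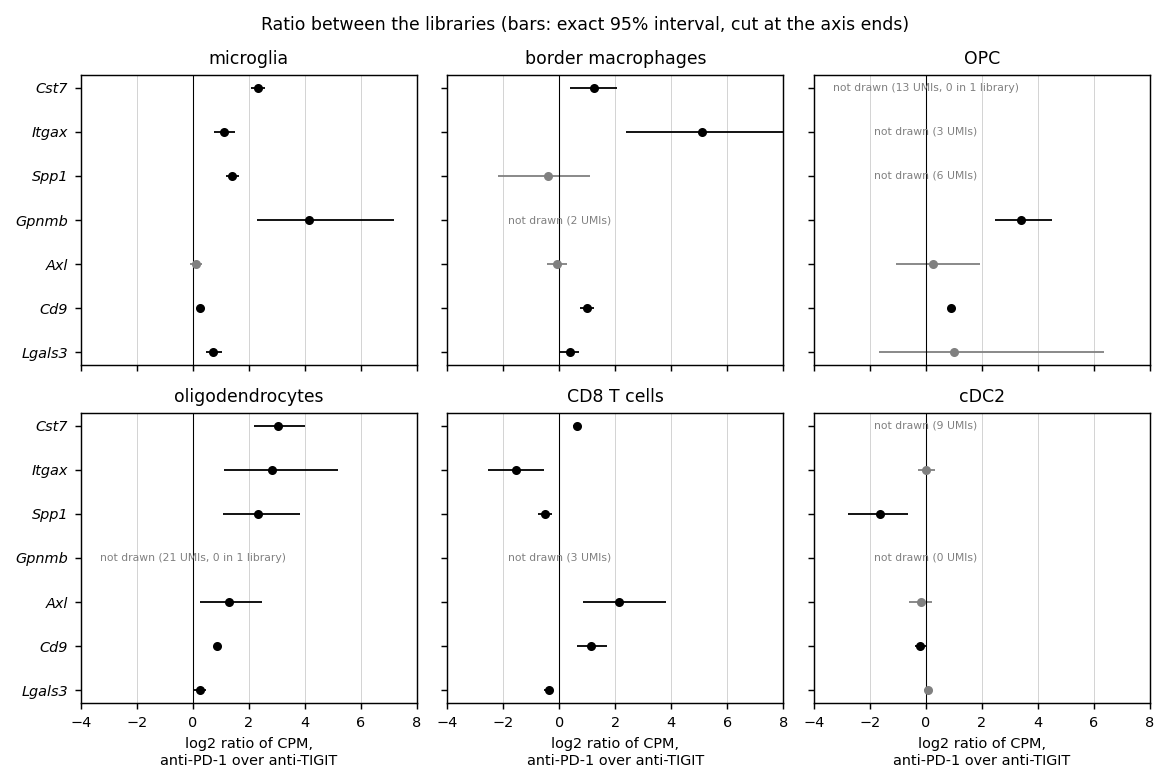
Points give the log2 ratio of CPM, anti-PD-1 over anti-TIGIT, for each of the 7 genes in 6 cell types, with exact 95% intervals (clipped at the ends of the axis) and in black where the interval does not hold 0. Microglia points lie to the right of 0, with the interval of Axl holding 0, while CD8 T cells have points on both sides.

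Over all 98 combinations of gene and cell type, 43 were higher with anti-PD-1, 11 lower and 44 had intervals holding 0. Cst7 was higher in 9 of 14 types and lower in none, Gpnmb and Axl were higher in 6 and lower in none, Cd9 was higher in 8 and lower in 1, Itgax higher in 3 and lower in 1, Lgals3 higher in 6 and lower in 5, and Spp1 higher in 5 and lower in 4. Over all genes tested, the share called higher ran from 4.6% in regulatory T cells to 18.9% in oligodendrocytes, and the share called lower from 5.86% in border macrophages to 26.8% in microglia. Calls of both directions were frequent for Lgals3 and Spp1. The Gpnmb call of cDC1 rested on 18 UMIs in 1 cell and that of monocytes on 6 UMIs in 2 cells. That of CD4 T cells rested on 10 UMIs, 6 of them in 1 cell. None of these types had a Gpnmb UMI with anti-TIGIT.

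By the mean of the 2 libraries, the order of cell types differed for each gene. Cst7 was highest in CD8 T cells, followed by microglia, regulatory T cells, other T cells and CD4 T cells, and the ranges of each neighbouring pair of libraries overlapped. With anti-PD-1 microglia held 34.9% of all Cst7 UMIs and CD8 T cells 28.2%, and with anti-TIGIT 9.80% and 46.9%. Itgax was highest in cDC2, then cDC1, then microglia, with no overlap between neighbours. Spp1 was highest in fibroblasts and then microglia, with ranges that overlapped, and Gpnmb in OPC, whose range overlapped that of monocytes. Axl was highest in microglia, where border macrophages, monocytes and fibroblasts overlapped in turn. Cd9 was highest in OPC, clear of microglia, fibroblasts and oligodendrocytes, and Lgals3 in monocytes, clear of cDC2, which was clear of cDC1. Of the 7 genes named for microglia, Axl alone had its highest mean there.

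The genes whose levels over 14 types and 2 libraries (28 points) were most like those of each of the 7 are given as a description. The points share 2 libraries and their depths, and 12068 genes were compared. Nearest to Cst7 were Lag3 (Pearson r = 0.93), Ccl5 (0.90) and Pdcd1 (0.88). Nearest to Itgax were Spint1, Tspan33 and Klrb1b (0.90, 0.90 and 0.89), and to Spp1 Ppm1h, Dhrs11 and Nab2 (0.81, 0.80 and 0.78). Car10, Fstl4 and Ndst3 were nearest to Gpnmb (0.85, 0.79 and 0.79), Tfe3, Ftl1 and Acer3 to Axl (0.90, 0.89 and 0.88), Ckb, Mras and Fam131a to Cd9 (0.94, 0.91 and 0.91), and Mcub, Zyx and Pitpna to Lgals3 (0.88, 0.87 and 0.86). Among the 7 themselves, the values of Cst7 correlated with those of Spp1 at 0.57 and with those of Itgax at -0.00210.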

How the data were processed

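Single-cell 5′ RNA libraries of mouse optic nerve were compared, 1 per treatment. The deposited values are raw UMI counts, 1 per gene and barcode. Per the file headers they come from Cell Ranger 8.0.0 (anti-PD-1) and 8.0.1 (anti-TIGIT), and the submitters' processing notes name the mm10 build, Seurat 5.0.3 and R 4.1.1. Cells needed 200 or more genes and no more than 10% of UMIs from mitochondrial genes (39 and 89 barcodes fell under the first limit, 107 and 176 over the second), and Scrublet, in scanpy 1.11.5 with an expected rate of 0.8% per 1000 cells, removed 576 and 155 doublets. A cell was gated where at least 3 markers of 1 of 21 lists had a UMI and at least 2 more than of any other list. T cells were divided by Cd8a, Cd8b1, Cd4 and Foxp3. This gated 14578 of 20770 cells. Counts were summed per type and library. Ratios have exact conditional binomial intervals, levels exact Poisson intervals and shares Clopper-Pearson intervals, at 95%; they cover counting error only. A pseudocount of 5 CPM and a minimum of 10 counts were used for size and medians. The shares over all genes tested also rest on that minimum, while the interval calls of the 7 genes had no minimum. Neighbour graphs for the cluster alternative used 2000 variable genes without the 7, 30 components, 15 neighbours and resolution 1.

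The members and lists were chosen with earlier results of these data known. Named besides the 7 were, per list, up to 4 genes each way with the largest ratios among those with at least 50 counts, and for each of the 7 the 3 genes most correlated with it; further genes (such as Mitf, Itgb2, Trem2, Csf1r and Nkg7) were named as checks or list members after their values were seen. Timp2 and Trem2, first listed under stage 1, are counted under stage 2, where the published scheme has them; as first listed, 7 of 10 stage 1 genes were higher and 2 lower in microglia, and 8 of 17 stage 2 genes higher and 5 lower.

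The calculation was tested on simulated counts with 200 genes at known ratios. The true ratio lay inside the interval for 96.5% of 13028 genes at the depths of microglia and for 96.7% of 10608 at those of border macrophages, and 75.3% and 91.8% of genes changed by 1.5 on the log2 scale passed 2-fold on log2(CPM + 5) in the right direction, as did 91.3% and 100% of those changed by 2. Of unchanged genes 0 of 12828 and 64 of 10408 passed. The simulation held no spread among cells or mice. Alternatives covered doublets, cell limits, gates, clusters, cells by Xist or Y-linked UMIs, thinning, scaling, pseudocounts and minimum counts. Chosen after seeing the data were leaving out the highest cell of each gene, leaving out cells with T or NK cell markers, other random draws of the thinning, and the move of Timp2 and Trem2.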

Additional observations from a re-analysis of the deposited data

Results flagged for a closer look

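The same gene had opposite directions in different cell types, each with an interval that does not hold 0, and these differences between types were not tested. For each gene the extremes are given. Itgax had a log2 ratio of 5.08 in border macrophages, on 14 UMIs against 1, and of -1.55 in CD8 T cells, on 19 against 18. Spp1 had 3.48 in monocytes, on 21 against 2 UMIs, and -1.64 in cDC2, on 10 against 51. Cd9 had 1.75 in plasma cells, on 256 against 37 UMIs, and -0.20 in cDC2, on 322 against 604. Lgals3 had 2.96 in plasma cells, on 48 against 3 UMIs, and -1.46 in B cells, on 13 against 24.

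The 6192 cells that no gate took, 4046 and 2146 by library, enter none of the comparisons. Of these, 67.2% with anti-PD-1 and 59.5% with anti-TIGIT had a UMI of at least 1 of the 7 genes. They held 40.1% of the Lgals3 UMIs with anti-PD-1 and 62.8% of the Spp1 UMIs with anti-TIGIT.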

How the results depend on the processing

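The median over the 7 genes in microglia, 1.03, kept its direction under every alternative run and was 0.472 with the gate without Tmem119, P2ry12 and Siglech, 0.577 with clusters, 0.248 in cells with Y-linked UMIs and 0.639 without cells holding T or NK cell markers; the cause was not tested. The median in border macrophages, 0.660, stayed between 0.358 and 0.819. The difference in the share of microglia with at least 3 of the genes, 4.79 points, was 1.61 in cells with Y-linked UMIs, 2.09 at 500 UMIs, 12.2 at 2000 UMIs and 34.6 points without thinning, where depth differs. Of 783 single values under alternatives 684 lay within the interval first given, 84 lay outside it in the same direction or uncalled, and 15 turned; settings that left too few counts gave no value. Those that turned were Spp1 in microglia (-0.31 with the reduced gate, -1.23 with clusters), CD8 T cells (2.58 in Xist-positive cells, 1.04 in cells with Y-linked UMIs, 0.66 thinned, 0.60 without the highest cell), cDC2 (0.35 thinned) and fibroblasts (0.0459 with limits of 500 genes and 5% mitochondrial UMIs), Lgals3 in microglia (-0.39), CD8 T cells (0.0154) and cDC1 (0.0129) with Y-linked UMIs, in border macrophages (-0.33) and oligodendrocytes (-0.34) with Xist UMIs and in plasma cells with clusters (-0.0946), and Axl in oligodendrocytes with Xist UMIs (-0.39). No paired analysis was possible because each group has 1 library. With few UMIs, as for Gpnmb in anti-TIGIT microglia, depth limits the ratio, and the intervals do not cover spread between mice.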

Other observations

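Plasma cells carried low but repeated counts of Gpnmb in both libraries, at 12.8 and 9.99 CPM, in 60 of 363 and 22 of 166 cells with at most 3 UMIs in any one, a log2 ratio of 0.35 (-0.30 to 1.05). In these cells 4 of the 7 genes were higher and none lower, against 10.2% and 6.31% of genes tested.

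Cd9 in regulatory, CD4 and B cells stood at or below 90.5 CPM in either library and had intervals holding 0 in all 3 types. Itgax had no UMI in fibroblasts of either library. The upper limits of its exact intervals were 5.02 CPM with anti-PD-1 and 10.1 CPM with anti-TIGIT. A floor of 3 counts would stand at 4.08 and 8.19 CPM.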
